A study of Bos taurus with 106 samples.

Results

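Lipogenic, sterol and glycerolipid synthesis genes were followed in the liver of dairy cows from the start of the dry period into early lactation. Of the genes of these pathways named by the probe annotation, 6 were followed as members: SREBF1, ACLY, IDI1, MSMO1, AGPAT1 and AGPAT2. They were chosen by symbol and were carried by 8 cDNA elements of the 8208 on the array, of which 7 had values in at least 2 cows of every group and were tested. Other genes of these pathways on the array are given as lists further below. ACLY was represented by an element at spots 3515 and 3516, called ACLY-a here, and by another at spots 12961 and 12962, called ACLY-b. IDI1 was represented by IDI1-a (spots 8339 and 8340) and by IDI1-b (spots 7811 and 7812). IDI1-b lacked a value in 8 of 53 cow-days and was not tested.

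Liver RNA came from 8 Holstein cows, each sampled on up to 7 days relative to calving, on days -65, -30, -14, 1, 14, 28 and 49. In the dry period of 65 days 4 cows were fed a restricted amount of a diet of 1.60 Mcal/kg and consumed about 80% of NRC requirements, while 4 cows were fed the same diet ad libitum and consumed about 120%. The 2 groups therefore differed in the amount eaten before calving, and no separate feeding after calving was named in the labels. Each liver sample was hybridised against a common reference of mixed tissues without liver, once with liver in Cy5 and once with liver in Cy3, so 106 arrays gave 53 cow-days. Values are log2 ratios of liver over reference, centred on the median of each array, with both dye orientations of a cow-day averaged into 1 sample. A value of 1 is a ratio of liver to reference that is 2 times that of the median element, and levels of different elements cannot be set against each other.

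Fatty acid and sterol synthesis share a cytosolic pool of acetyl-CoA. ATP citrate lyase, the product of ACLY, makes that acetyl-CoA from citrate, and SREBF1 encodes SREBP-1, a transcription factor that in its liver form activates genes of fatty acid and triglyceride synthesis in response to insulin. IDI1 encodes isopentenyl-diphosphate isomerase, which balances the isoprenoid building blocks, and MSMO1 encodes the methylsterol monooxygenase that begins removal of the methyl groups at carbon 4 of the sterol ring. AGPAT1 and AGPAT2 encode acyltransferases of the endoplasmic reticulum that convert lysophosphatidic acid to phosphatidic acid, the branch point for triglycerides and phospholipids. In cattle most fatty acid synthesis takes place in adipose tissue and mammary gland rather than in liver, and the liver around calving receives fatty acids released from adipose tissue and esterifies part of them.

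The arrays differed in quality over the days. The correlation between the turned values of the 2 orientations of a cow-day had a median of 0.636 and a range of 0.033 to 0.816. Its mean was 0.702 on day -65, 0.531 on day -14, 0.444 on day 1, 0.480 on day 14 and 0.666 on day 28. The 4 cow-days below 0.3 were all of ad libitum cows, on days -14, 1 and 14. Among hepatocyte markers SLC10A1 lay at 5.17 and TF at 4.65 on average over 53 cow-days, both far above the median element of the arrays. The mean level of the 3 hepatocyte marker elements went from 4.24 on day -65 to 3.01 on day -14 and 4.16 on day 28, and that of 44 ribosomal protein genes from -1.24 to -0.50 and -0.80. In the limma test over all days SLC10A1 and TF changed (adjusted p = 1.43e-13 and 2.42e-11). APOA1, the other hepatocyte marker, did not (adjusted p = 0.387). In whole tissue, fewer cells of a type and less RNA per cell cannot be told apart. The part of array agreement and of these markers in the results below was not tested.

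The 8 elements were not measured equally well. MSMO1 was the most repeatable: its 2 spots correlated at 0.995 over arrays, and its 2 orientations at 0.872 over cow-days, against a median of 0.428 over all 8061 tested elements. ACLY-b and AGPAT1 followed with orientation correlations of 0.497 and 0.481, and ACLY-a had 0.265. For SREBF1, IDI1-a, IDI1-b and AGPAT2 the orientations correlated at only 0.072, 0.0026, 0.071 and 0.086. These 4 elements also carried a large dye difference. SREBF1 averaged -1.13 with liver in Cy5 and 1.90 with liver in Cy3, so it lay below the median element in one dye and above it in the other. IDI1-a averaged -1.18 and 0.96, and AGPAT2 0.25 and 2.56. The mean over both orientations removes a dye effect that is equal on the 2 arrays of a cow-day. For these 4 elements, however, the value of one orientation said little about the other. The dye difference (Cy5 minus Cy3) also varied over days. On days -14, 1 and 14 and on the other days it averaged 1.12 and 0.19 for ACLY-b, and 1.03 and 0.35 for MSMO1. It was 0.56 and 0.17 for AGPAT1, -0.45 and 0.12 for ACLY-a, and -3.06 and -1.37 for IDI1-a. For AGPAT2 it was -2.21 and -2.41. Its part in the results was not tested.

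**Figure D1:**
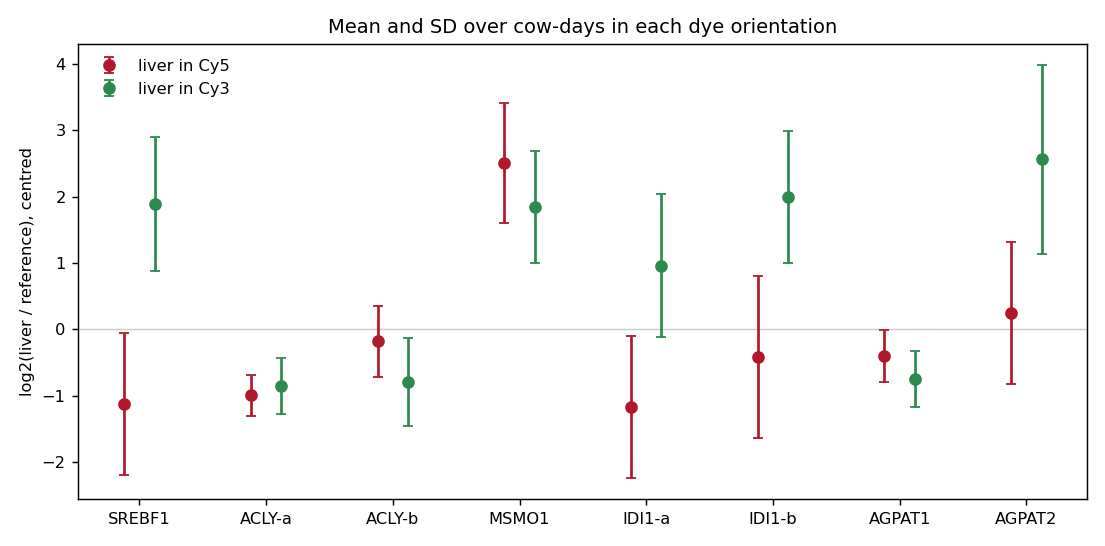
Mean median-centred log2 ratio of liver over reference for each element in each dye orientation, with the SD over cow-days as bars; the x axis names the elements. MSMO1, ACLY-a, ACLY-b and AGPAT1 lie at most 0.66 log2 units apart between orientations, while SREBF1, both IDI1 elements and AGPAT2 lie 2 or more apart.

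The first question was whether the genes changed over the 7 days. In the test over all days with limma, 3 of 7 elements passed at an adjusted p under 0.05, MSMO1 (adjusted p = 0.00975), ACLY-a (adjusted p = 0.0138) and IDI1-a (adjusted p = 0.0266). Of all elements tested, 43.4% passed, so the share among these genes was close to the background. SREBF1 (adjusted p = 0.655), AGPAT1 (0.599), ACLY-b (0.391) and AGPAT2 (0.937) did not pass. The MSMO1 call was lost without cow 6877 (adjusted p = 0.0588) or cow 7187 (0.0512). That of ACLY-a was lost with liver in Cy5 alone (adjusted p = 0.106) and without cow 6952, 7105, 7161 or 7187 (0.0623 to 0.0854). That of IDI1-a was lost with liver in Cy5 alone (adjusted p = 0.346), with quantile normalization (0.0540) and without cow 6877, 7045, 7161 or 7187 (0.0571 to 0.117).

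**Figure D2:**
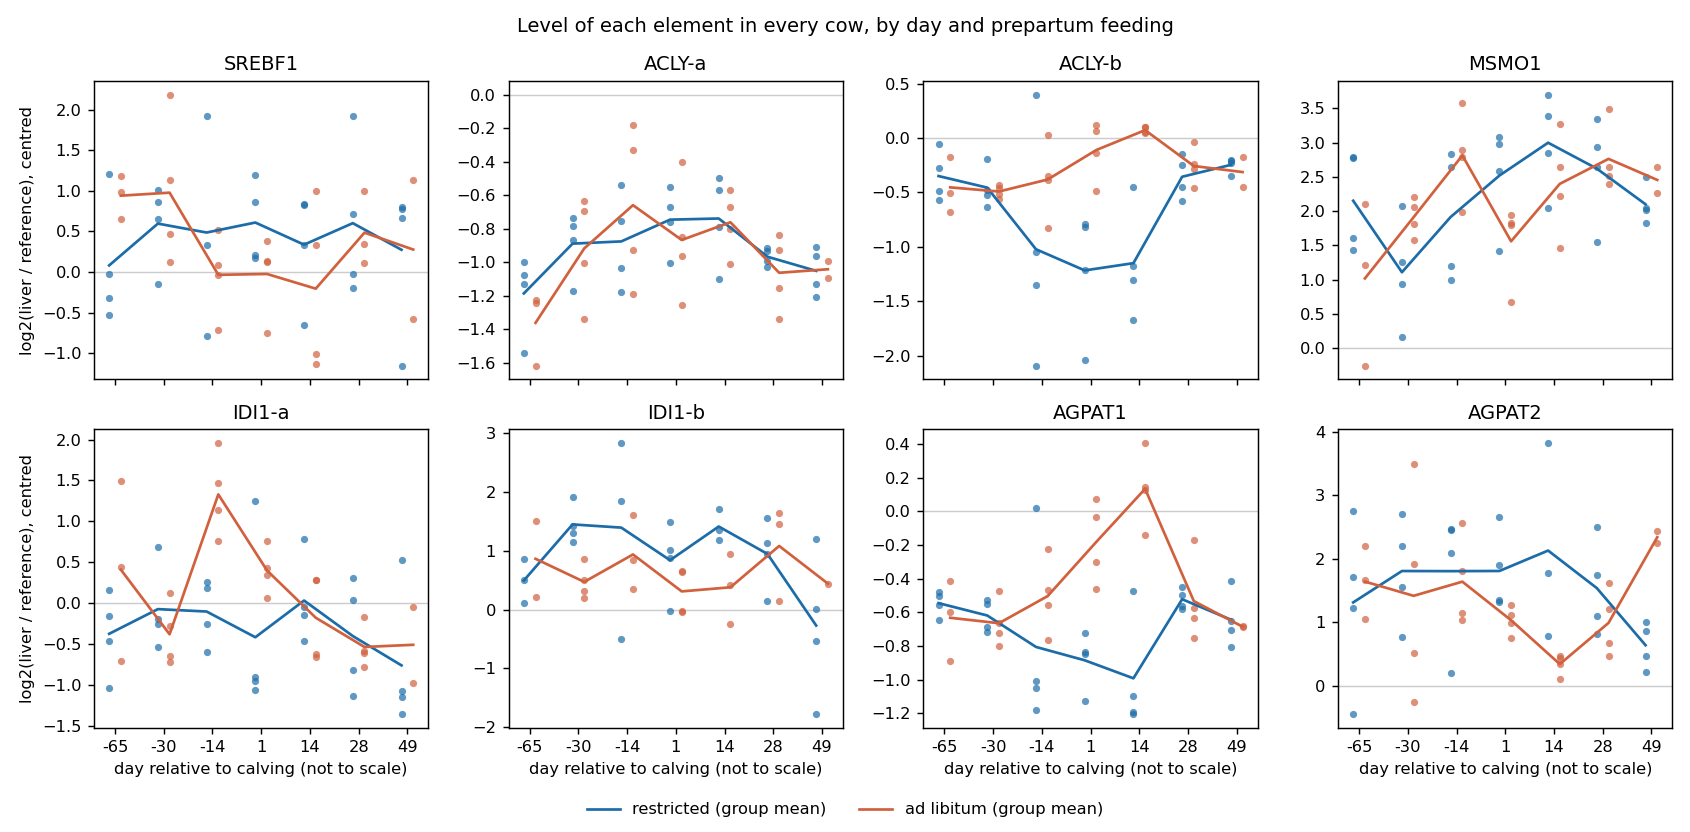
Median-centred log2 ratio of liver over reference of each element (y axis) on each sampling day (x axis, equal spacing) in every cow, with lines through the group means of restricted and ad libitum cows. ACLY-b and AGPAT1 separate by feeding on days 1 and 14 and come together again on day 28, whereas the MSMO1 lines cross.

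MSMO1 had the widest course among the elements that repeated well. The 7 cows sampled on day -65 averaged 1.67 ± 1.05 (SD). Over 8 cows the mean was 1.51 ± 0.70 on day -30, 2.36 ± 0.89 on day -14, 2.04 ± 0.81 on day 1, 2.70 ± 0.76 on day 14 and 2.69 ± 0.60 on day 28. The 6 cows of day 49 averaged 2.22 ± 0.31. MSMO1 was thus above the median element in 52 of 53 cow-days, with its lowest means before day -14. From day -30 to day -14 it rose by 0.85 ± 0.33 (SE), in 7 of 8 cows, with an adjusted p of 0.0448. In restricted cows the values on day -30 were 0.17, 0.93, 1.26 and 2.08, and on day -14 they were 0.99, 1.20, 2.64 and 2.83. In ad libitum cows the values ran from 1.576 to 2.21 on day -30, and 1.99, 2.79, 2.89 and 3.58 on day -14. The levels of the 2 days overlapped in both groups, in ad libitum cows only between 1.99 and 2.21. With liver in Cy3 alone the rise was 0.48 (adjusted p = 0.270), and it missed the threshold when any of 6 single cows was left out.

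IDI1, the other isoprenoid gene, was measured by IDI1-a with a larger spread. On day -14 its values in ad libitum cows were 0.76, 1.14, 1.46 and 1.96, against -0.60, -0.25, 0.18 and 0.26 in restricted cows. No ad libitum cow overlapped a restricted cow on that day, and how many of all elements lay apart was not counted. IDI1-a rose by 0.84 ± 0.30 (SE) from day -30 to day -14 in 5 of 8 cows (adjusted p = 0.0271), where 33.5% of all elements passed and the 2 elements were MSMO1 and IDI1-a. It fell by 1.08 on the log2 scale (SE 0.30) from day -14 to day 28 in 7 of 8 cows (adjusted p = 0.00733), the only one of 7 to pass there, against 23.1% of all elements. The ad libitum mean went from -0.38 on day -30 to 1.33 on day -14 and the restricted mean from -0.075 to -0.10, and the difference between these changes was 1.74 (95% interval 0.53 to 2.95, adjusted p = 0.390). The call to day -14 was lost without cow 7045, 7050, 7105 or 7187 (adjusted p 0.0532 to 0.0784). Both changes were larger in 1 orientation. With liver in Cy5 alone the change to day -14 was -0.08 and that to day 28 was -0.40, while with liver in Cy3 alone they were 1.76 and -1.77. IDI1-b, with 45 cow-days, correlated with IDI1-a at 0.27 over those cow-days. Its means on days -30 and -14 were higher in restricted cows. On day -30 its values ran from 1.15 to 1.92 in restricted cows and from 0.19 to 0.86 in ad libitum cows (n = 4 each). On day -14 the groups overlapped, with means of 1.39 ± 1.72 and 0.94 ± 0.63 (SD, n = 3 each). The higher level of IDI1-a in ad libitum cows on day -14 was therefore not seen in IDI1-b.

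The ACLY elements did not follow each other over cow-days (r = -0.36, n = 53). ACLY-a lay below the median element on every day. The day -65 mean was -1.26 ± 0.23 over 7 cows, and the means over 8 cows were -0.77 ± 0.38 on day -14, -0.75 ± 0.22 on day 14 and -1.02 ± 0.16 on day 28. It rose by 0.51 ± 0.14 (SE) from day -65 to day -14, with a higher value in 5 of the 7 cows sampled on both (adjusted p = 0.00454). It was the only one of 7 elements to pass in that comparison, in which 31.7% of all elements passed. The day -65 values were -1.62, -1.54, -1.25, -1.22, -1.13, -1.08 and -0.999, and those of day -14 ran from -1.19 to -0.18, so the days overlapped. The rise was 0.30 with liver in Cy5 alone (adjusted p = 0.162) and 0.39 without cow 7161 (adjusted p = 0.0519). ACLY-b separated by feeding around calving and is described there.

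No element passed between days -65 and -30 (0.112% of all elements passed), between days -14 and 1 (0.397%), between days 1 and 14 (0.707%), between days 14 and 28 (8.62%) or between days 28 and 49 (0.0124%). At an unadjusted p under 0.05 in limma 1, 1, 0, 0 and 0 of the 7 elements lay past the threshold in these 5 comparisons. Over all 8061 elements the counts were 620, 795, 820, 1634 and 581. From day -14 to day 1, across calving, few of all elements passed either. MSMO1 on day 1 averaged 1.56 ± 0.59 in ad libitum cows and 2.52 ± 0.76 in restricted cows (SD, n = 4 each).

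Without centring, the median of all elements shifted by 0.54 from day -65 to day -14 and by -0.61 from day -14 to day 28. The changes above are relative to that shift. AGPAT1 changed by 0.13 from day -14 to day 28 after centring and did not pass, whereas without centring it fell by 0.50 (adjusted p = 0.0391).

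The next question was whether levels differed with the amount fed before calving. Before calving, with 1 value per cow from days -30 and -14, no element passed (0% of all elements). An unadjusted limma p under 0.05 was found for 2 of 7, beside 1050 of all 8061 elements. MSMO1 lay 0.85 ± 0.35 (SE) higher in ad libitum cows (95% interval 0.068 to 1.63, adjusted p = 0.360). IDI1-a lay 0.56 ± 0.24 higher (95% interval 0.030 to 1.10, adjusted p = 0.364). IDI1-b, which was not tested, averaged 0.70 ± 0.24 in ad libitum and 1.47 ± 0.88 in restricted cows (SD, n = 3 each). The MSMO1 values were 2.02 to 2.58 in ad libitum cows and 0.58 to 2.46 in restricted cows, so the groups overlapped.

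After calving, with 1 value per cow from days 1, 14 and 28, 3 of 7 elements passed and 10.5% of all elements did. Where groups are said below not to overlap, the share of all elements with groups apart was not counted. ACLY-b and AGPAT1 were higher in cows that had been fed ad libitum, and AGPAT2 was lower. ACLY-b values were -0.30, -0.10, -0.04 and 0.04 in ad libitum cows and -1.01, -0.92, -0.85 and -0.85 in restricted cows. The groups did not overlap. As means over 3 days the restricted cows varied little (SD 0.075), but on single days they varied more. Their SD was 0.58 on day 1, 0.51 on day 14 and 0.20 on day 28. The difference was 0.81 ± 0.11 (SE, 95% interval 0.577 to 1.04, adjusted p = 0.000965), a ratio of 1.75. It was 0.83 with liver in Cy5 alone and 0.79 with liver in Cy3 alone, and it passed with each cow left out in turn.

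AGPAT1 values after calving were -0.30, -0.30, -0.27 and 0.10 in ad libitum cows and -0.93, -0.88, -0.79 and -0.60 in restricted cows. The groups did not overlap. The difference was 0.61 ± 0.13 (SE, 95% interval 0.329 to 0.884, adjusted p = 0.00811), a ratio of 1.52. It passed with each cow left out in turn, and missed the threshold without centring (0.56, adjusted p = 0.136) and with liver in Cy3 alone (0.61, adjusted p = 0.0628). AGPAT1 and ACLY-b correlated with each other at 0.79 over 53 cow-days.

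AGPAT2, the other acyltransferase of that step, went the other way. Its values after calving were 0.59, 0.63, 0.87 and 1.07 in ad libitum cows and 1.17, 1.84 and 2.55 in 3 restricted cows, cow 7105 having no value on day 14. The groups did not overlap, but the restricted cows were widely spread. The difference was -1.06 ± 0.27 (SE, 95% interval -1.68 to -0.45, adjusted p = 0.0337), a ratio of 2.09 between restricted and ad libitum cows. It was larger in 1 orientation: -1.34 with liver in Cy5 alone and -0.58 with liver in Cy3 alone (adjusted p = 0.801). Leaving out any of 5 single cows gave an adjusted p between 0.0656 and 0.0955.

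**Figure D3:**
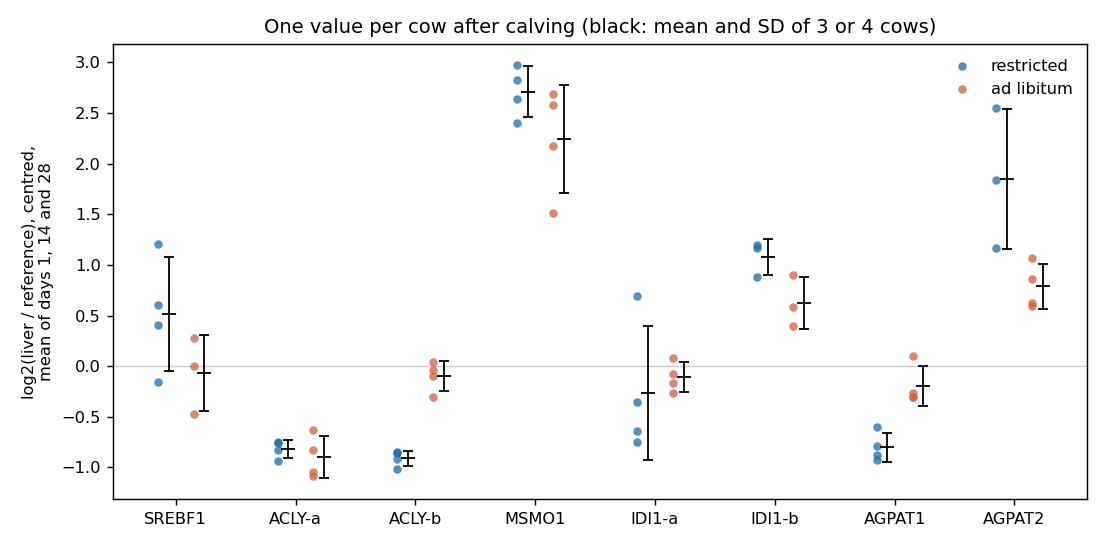
Mean median-centred log2 ratio over days 1, 14 and 28 (y axis) of each element (x axis), 1 point per cow, restricted and ad libitum, with the mean and SD in black. The groups lie apart for ACLY-b, AGPAT1 and AGPAT2 (3 restricted cows), and overlap for SREBF1, ACLY-a, MSMO1, IDI1-a and IDI1-b. How many of all elements lie apart was not counted.

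The other elements did not pass after calving. ACLY-a differed by -0.08 ± 0.12 (95% interval -0.35 to 0.19), so the higher value of ACLY-b was not seen in the other element of the same gene. MSMO1 differed by -0.47 ± 0.24 (95% interval -0.99 to 0.05) and IDI1-a by 0.16 ± 0.27 (95% interval -0.43 to 0.74). SREBF1 differed by -0.58 ± 0.29 (95% interval -1.22 to 0.06), with 3 ad libitum cows, because cow 7161 had no value on day 28. Without centring SREBF1 passed, at -0.74 (adjusted p = 0.0452), the only 1 of 16 alternatives to do so. Over the alternatives its difference ran from -1.24 to 0.35. The orientations differed in direction. With liver in Cy5 SREBF1 averaged -1.92 in ad libitum and -0.67 in restricted cows, and with liver in Cy3 2.09 and 1.71 (n = 4 each). For the change across calving no element passed between the feeding groups (0% of all elements). An unadjusted limma p under 0.05 was found in 710 of all 8037 elements, and in 1 of the 7. That was MSMO1, whose change was 1.20 ± 1.04 in restricted cows and -0.12 ± 0.72 in ad libitum cows (SD, n = 4 each, adjusted p = 0.504).

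Day by day, ACLY-b and AGPAT1 passed on days 1 and 14. On day 1, ACLY-b values were -0.49, -0.13, 0.06 and 0.12 in ad libitum cows and -2.04, -1.21, -0.82 and -0.79 in restricted cows. On day 14 they were 0.04, 0.05, 0.10 and 0.10 in ad libitum cows and -1.68, -1.30, -1.17 and -0.45 in restricted cows. The groups did not overlap on either day, with differences of 1.11 ± 0.28 (adjusted p = 0.0137) and 1.22 ± 0.28 (adjusted p = 0.00425). The day 14 call was lost in 2 of 20 alternatives, without cow 7045 (1.05, adjusted p = 0.0501) and without cow-days of agreement under 0.6 (0.99). The day 1 call was lost in 6 of 19 alternatives, without centring (0.83, adjusted p = 0.238), with liver in Cy3 alone (adjusted p = 0.132), without the 4 cow-days of lowest agreement (1.03, adjusted p = 0.123) and without cow 7045, 7161 or 7187 (0.0689 to 0.0811). On day -14 the difference was 0.64 ± 0.28 (95% interval 0.078 to 1.20, adjusted p = 0.153). Without cow 6877, the only 1 of 20 alternatives to pass, it was 1.11 (adjusted p = 0.00214). On days -30 and 28 all 8 cows lay between -0.63 and -0.04. Of the restricted cows, 3 of 4 lay below that range on days -14 and 14 and all 4 on day 1. The exceptions among them were cow 6877 on day -14, at 0.40, and cow 6952 on day 14, at -0.45. Ad libitum cows left that range too. They ran from -0.83 to 0.03 on day -14 and from -0.49 to 0.12 on day 1. On day 14 all 4 lay above it, from 0.04 to 0.10.

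AGPAT1 showed the same days. On day 14 its values were -0.14, 0.13, 0.14 and 0.41 in ad libitum cows and -1.20, -1.19, -1.10 and -0.47 in restricted cows. The difference was 0.70 ± 0.18 on day 1 (adjusted p = 0.0137) and 1.13 ± 0.18 on day 14 (adjusted p = 0.000548). The day 1 call was lost in 6 of 19 alternatives, without centring (0.42, adjusted p = 0.354), with liver in Cy3 alone (0.53, adjusted p = 0.224), without the 4 cow-days of lowest agreement (0.72, adjusted p = 0.114) and without cow 7045, 7161 or 7187 (0.0729 to 0.0834). On day -14 the difference was 0.30 ± 0.18 (95% interval -0.055 to 0.66, adjusted p = 0.287). Without cow 6877, the only 1 of 20 alternatives to pass, it was 0.58 (adjusted p = 0.00897). With all cows the day 28 difference was -0.01 (95% interval -0.37 to 0.35). AGPAT1 was the only one of 7 elements whose diet difference varied with the day by the test of that interaction (adjusted p = 0.0265, 0.794% of all elements). An unadjusted p under 0.05 in that test was found for 5 of 7 elements, beside 1467 of all 8061. The AGPAT1 interaction call was lost in 12 of 20 alternatives, with adjusted p up to 0.457. The day 14 difference in AGPAT1 passed in all 20 alternatives that could be fitted, where adjusted p lay between 8.18e-06 and 0.0339.

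**Figure D4:**
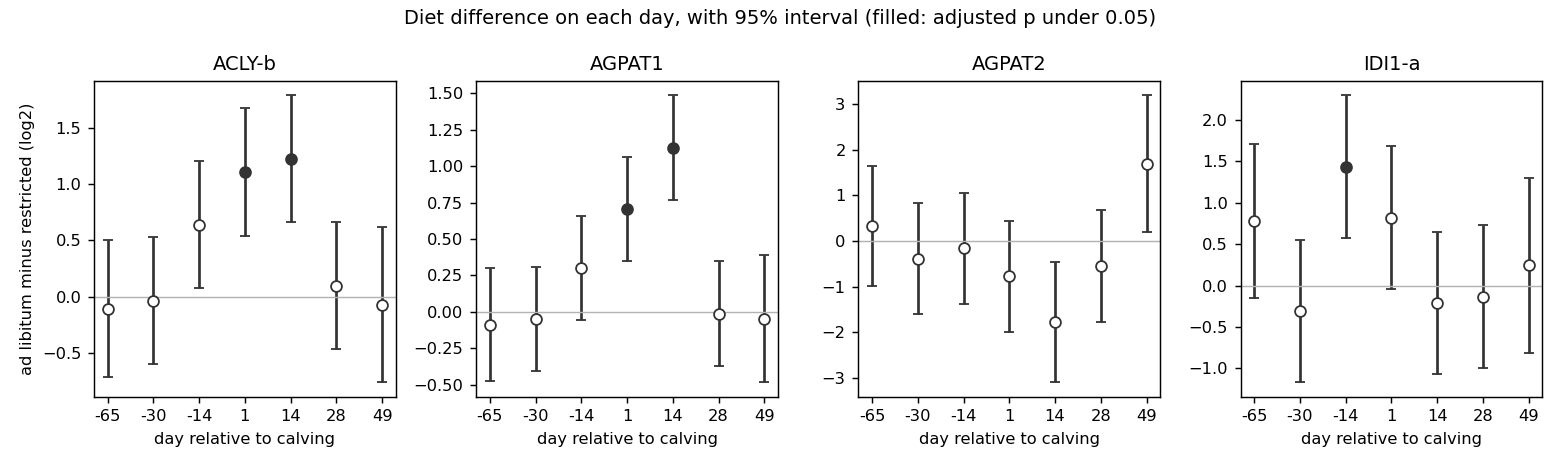
Difference between ad libitum and restricted cows on the log2 scale (y axis) on each day (x axis) for 4 elements, with the 95% interval and filled points where the adjusted p was under 0.05. ACLY-b and AGPAT1 have filled points on days 1 and 14, and IDI1-a on day -14.

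On day 1, 2 of 7 elements and 10.7% of all elements passed, and on day 14, 2 of 7 and 15.3%. AGPAT2 on day 14 was listed at 0.11, 0.34, 0.44 and 0.47 in ad libitum cows and at 0.79, 1.78 and 3.83 in restricted cows, with a difference of -1.78 ± 0.65 (adjusted p = 0.0572). On day -14, 1 of 7 elements passed, against 6.08% of all elements: IDI1-a, whose values are given above, was 1.43 ± 0.43 (SE) higher in ad libitum cows (adjusted p = 0.0363), a call lost in 12 of 20 alternatives. None passed on days -65, -30, 28 and 49 (0% of all elements on each). An unadjusted limma p under 0.05 was found there in 285, 77, 93 and 48 of all 8061, and in 1, 0, 0 and 1 of 7. On day -65 that was MSMO1, which was lower in ad libitum cows (-1.13, 95% interval -2.17 to -0.094). On day 49, with 2 ad libitum cows, it was AGPAT2, which was higher in ad libitum cows (1.69, 95% interval 0.20 to 3.19). This was opposite in sign to its difference after calving.

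No element passed the test of whether its change between days differed between the feeding groups. This held for day -14 against day -65 (1.3% of all elements passed), for day -14 against day -30 (0%), for day 28 against day 14 (0.0124%) and for day 28 against day -14 (0%). At an unadjusted limma p under 0.05, 1, 1, 2 and 1 of 7 elements lay past the threshold, beside 1449, 735, 1326 and 678 of all 8061.

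Several measures moved with the feeding difference after calving. The agreement of orientations over days 1, 14 and 28 was 0.608 ± 0.097 in restricted and 0.452 ± 0.077 in ad libitum cows (SD, n = 4 each). Without the 20 cow-days of agreement under 0.6 the difference in ACLY-b was 0.40 and that in AGPAT1 0.23, with no call left among all elements. That filter also changed the mix of days, since each cow's mean was taken over its remaining days. Agreement in ad libitum cows was at most 0.542 on day 1, so no ad libitum value of that day remained. On day 28 with all cows the differences were 0.10 and -0.01. On day 14 alone, where the median agreement of ad libitum cows was 0.375, the filter left 0.99 and 1.25. Without the 4 cow-days under 0.3, a choice added after the data were seen, the difference after calving was 0.77 in ACLY-b (adjusted p = 0.00387) and 0.57 in AGPAT1 (adjusted p = 0.0279). The difference in AGPAT2 was then -0.96 and missed the threshold (adjusted p = 0.0535). The course of ACLY-b was shared by many elements: 447 of 7576 other complete elements correlated with it above 0.9, all 447 were among those higher in ad libitum cows after calving, and they made up 56.6% of all elements called in that direction. No other element correlated with AGPAT1 above 0.9. Over all elements 9.81% were higher and 0.67% lower in ad libitum cows after calving. Of 12 macrophage elements 1 was higher and 2 were lower in ad libitum cows, with list means of 2.26 to 2.72 in ad libitum and 2.44 to 2.93 in restricted cows. Of 8 endothelial elements 2 were lower, with list means of 1.14 to 1.46 and 1.44 to 1.71. Of 3 elements of T and NK cells 1 was lower, with list means of 0.56 to 0.77 and 0.81 to 1.10. Of 2 biliary elements 1 was higher (list means of -0.22 to 0.10 and -0.41 to 0.03), and none of 3 hepatocyte (3.26 to 3.52 and 3.45 to 3.79) or 7 stellate elements passed (-2.19 to -1.44 and -2.12 to -1.59). The part of these measures in the feeding difference was not tested.

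The nearest patterns over cow-days, among 5261 or 5262 elements with 1 gene symbol, are given as descriptions. For MSMO1 they were RDH11 (r = 0.80), MSR1 (0.77) and TBCA (0.74). For ACLY-a they were CTSK (0.72), CCNF (0.72) and FDPS (0.71), the last of them encoding farnesyl diphosphate synthase of the sterol pathway. For ACLY-b they were TAF4, RCOR1 and TMEM60 (0.98 each), and for AGPAT1 STK24, DDR1 (0.87 each) and COPG2 (0.86). For SREBF1 the highest was MKRN2 (0.63), for IDI1-a SMOC2 (0.55), for IDI1-b MGLL (0.61) and for AGPAT2 EDEM1 (0.51). All these points share their arrays and reference.

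The fatty acid synthesis list had 13 tested elements of 10 genes, with SREBF1, ACLY-a and ACLY-b counted among them. Of these 6 changed over days, ACLY-a included, near the 43.4% of all elements. From day -30 to day -14, 4 were higher and none lower, against 19.5% higher and 14% lower over all elements. ELOVL1, an elongase of saturated very-long-chain fatty acids, rose by 0.51 ± 0.08 (SE, adjusted p = 7.41e-06), HACD2, a dehydratase of the same elongation cycle, by 0.72 ± 0.22 (adjusted p = 0.00996), and TKT, transketolase of the pentose phosphate pathway, by 0.76 ± 0.25 (adjusted p = 0.0156). MLXIPL, the carbohydrate-responsive factor ChREBP, rose by 0.79 ± 0.15 from day -14 to day 28 (adjusted p = 0.000103). The list median for day -14 against day -30 was 0.14, beside 0.06 over all elements. After calving only ACLY-b of this list passed for feeding, against 10.5% of all elements.

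In sterol synthesis 7 of 11 tested elements changed over days, MSMO1 and IDI1-a included, and from day -30 to day -14 3 rose and 2 fell, against the same shares over all elements (43.4%, 19.5% and 14%). FDPS rose by 0.76 ± 0.26 (adjusted p = 0.0202), as did MSMO1 and IDI1-a above. ACAT2, the cytosolic thiolase that begins the pathway, fell by 0.67 on the log2 scale (SE 0.15, adjusted p = 0.000782), and ERG28, a scaffold of the sterol demethylation complex, fell by 0.51 (SE 0.16, adjusted p = 0.0162). The list therefore did not move one way. By day 28 ACAT2 was 0.97 ± 0.15 and ERG28 0.67 ± 0.16 above day -14 (adjusted p = 6.52e-06 and 0.00252). None of the 11 passed for feeding after calving (limma), against 10.5% of all elements. The list median was -0.21 beside -0.06 over all elements. EBP, a sterol isomerase, had the smallest p at -0.44 ± 0.18 (adjusted p = 0.176).

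In glycerolipid synthesis 12 of 23 tested elements changed over days, and from day -65 to day -14 3 rose and 4 fell, against 43.4%, 17.9% and 13.8% over all elements. CHKB, a choline kinase, rose by 0.55 ± 0.12 (adjusted p = 0.000415), and CEPT1, which makes phosphatidylcholine and phosphatidylethanolamine, by 0.44 ± 0.13 (adjusted p = 0.0104). LPCAT4, a lysophospholipid acyltransferase, and PGS1, which makes the precursor of cardiolipin, each fell by 0.70 (SE 0.17 and 0.13, adjusted p = 0.00155 and 0.000109). After calving 5 of 23 passed for feeding, against 10.5% of all elements. Of these, 4 were higher in ad libitum cows (9.81% over all elements), AGPAT1 and PTPMT1 (0.59 ± 0.12, adjusted p = 0.00552) among them. AGPAT2 was lower, against 0.67% lower over all elements. PTPMT1 removes the phosphate from the product of PGS1. The list median was -0.01, beside -0.06 over all elements.

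Storage and export of triglyceride had 10 tested elements, of which 5 changed over days (43.4% over all elements). From day -65 to day -14 4 fell and none rose, against 13.8% and 17.9% over all elements: PNPLA2, the adipose triglyceride lipase, by 1.30 (SE 0.19, adjusted p = 1.75e-06), PLIN3, a lipid droplet coat protein, by 0.73 (SE 0.20, adjusted p = 0.00512), CIDEA by 0.57 (SE 0.21, adjusted p = 0.0358) and MGLL, monoglyceride lipase, by 0.41 (SE 0.16, adjusted p = 0.0425). After calving 2 of 10 were higher in ad libitum cows, against 9.81% of all elements. They were CIDEA, by 0.64 ± 0.10 (adjusted p = 0.00125), and MGLL, by 0.60 ± 0.09 (adjusted p = 0.00161). Another MGLL element did not pass. The list median was -0.18, beside -0.06 over all elements. Of 9 elements of upstream signals 4 changed over days, near the 43.4% of all elements. PRKAB1, a subunit of the AMP-activated kinase, rose by 0.88 ± 0.14 from day -30 to day -14 (adjusted p = 6.51e-06), and the transcription factor USF2 by 0.62 ± 0.14 (adjusted p = 0.00113), while AKT1 fell by 0.51 (SE 0.13, adjusted p = 0.00206). Of the RXRB elements, for a partner of nuclear receptors, 1 was higher in ad libitum cows after calving at 0.52 ± 0.11 (adjusted p = 0.00720) and the other was at -0.16 ± 0.12 (adjusted p = 0.532).

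Fatty acid oxidation, listed for comparison, had 15 tested elements, of which 7 changed over days and none passed for feeding after calving, against 43.4% and 10.5% over all elements. On day -14 4 of the 15 were lower in ad libitum cows and none higher (5.14% and 0.943% over all elements), with a list median of -0.50 beside 0.0048. CPT1A, the carnitine palmitoyltransferase that admits fatty acids to mitochondria, rose by 0.71 ± 0.19 from day -30 to day -14 (adjusted p = 0.00470). ACADVL, the very-long-chain acyl-CoA dehydrogenase, rose by 0.43 ± 0.14 (adjusted p = 0.0182) in the same comparison. The list median after calving was -0.18 in ad libitum against restricted cows, beside -0.06 over all elements.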

How the data were processed

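GenePix 4.0 processed the scans, per the labels. The authors deposited log2 ratios of Cy5 over Cy3 per spot; background correction, filters and normalization are not given in the sources used here. Ratios were turned to liver over reference by the dye in the titles, the 2 spots of an element averaged, each array centred on its median and both orientations required. As deposited, the 2 arrays of a cow-day correlated negatively in 53 of 53 cow-days. Elements with values in at least 2 cows of each of 14 groups were tested (8061 of 8208). In R 4.3.3, limma 3.58.1 (using statmod 1.5.0) fitted diet-by-day means with cow as a random block, since each cow was sampled on several days (estimated correlation 0.0176). Feeding periods were compared on 1 value per cow, ad libitum minus restricted. Tests were two-sided, adjusted by Benjamini-Hochberg over all elements, and were tested on simulated data. Symbols came from the platform annotation, updated through RefSeq names of assembly ARS-UCD2.0. Genes and lists were chosen with earlier results of these data known. All 8 member elements are named; from each list up to 4 elements with the smallest p over days and up to 2 per feeding comparison could be named, and per member element the 3 with the highest correlation. Precision is limited by the number of cows, and a cDNA element may also bind transcripts of related genes.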

Additional observations from a re-analysis of the deposited data

Results flagged for a closer look

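Among 123 groups of 4 cows examined, 10 held a value that stood apart from the others by Dixon's criterion, which chance gives in about 1 of 20 groups. In restricted cows AGPAT1 of cow 6877 on day -14 was 0.020, beside -1.18 to -1.01 in the others, and AGPAT2 of the same cow and day was 0.20, beside 2.09 to 2.48. AGPAT1 of this cow before calving, as 1 value per cow, was -0.25, beside -0.87 to -0.86. SREBF1 of cow 6877 on day 49 was -1.15, beside 0.67 to 0.80. AGPAT1 of restricted cow 6952 on day 14 was -0.47, beside -1.20 to -1.10, and IDI1-a of this cow on day 49 was 0.52, beside -1.36 to -1.07. IDI1-a of restricted cow 7105 on day 1 was 1.25, beside -1.07 to -0.91. ACLY-b of restricted cow 7045 on day 49 was -0.35, beside -0.23 to -0.21. In ad libitum cows MSMO1 of cow 7161 on day 1 was 0.67, beside 1.80 to 1.94, and AGPAT1 of cow 7161 after calving was 0.10, beside -0.30 to -0.27.

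The difference between feeding groups in AGPAT1 varied with the day by the interaction test of limma (adjusted p = 0.0265).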

How the results depend on the processing

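Counts are of the 7 tested elements. Elements changing over days numbered 3, 4 without centring and with liver in Cy3 alone, 2 with quantile normalization and 1 with liver in Cy5 alone. For day -14 against day -65 the count was 1, and 3 without centring and with liver in Cy3 alone. For day -14 against day -30 it was 2, 3 without centring and with Cy3 alone, 0 with scaling to equal spread, quantile normalization or without cow-days of agreement under 0.6, and 1 with Cy5 alone or with agreement as a covariate. There IDI1-a reversed to -0.082 with Cy5 alone. For day 28 against day 14 it was 0, 3 without centring and with Cy3 alone, and 1 with scaling or quantile normalization. For day 28 against day -14 it was 1, 4 without centring (AGPAT1 reversed to -0.50), 3 with Cy3 alone, 2 with scaling or quantile normalization and 0 with Cy5 alone. For diet by day it was 1, and 0 without centring, with scaling, quantile normalization, Cy5 alone, Cy3 alone or without cow-days of agreement under 0.3. For diet on each day the sum over days was 5, 6 with Cy5 alone, 4 with scaling and 2 without centring, with Cy3 alone or without cow-days under 0.3. After calving it was 3 (also without centring, where SREBF1 passed and AGPAT1 did not), 2 over complete elements and without cow-days under 0.3, 1 with Cy3 alone and 0 without cow-days under 0.6. The cause of these changes was not tested.

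Leaving out 1 cow at a time gave 0 to 3 elements over days, 0 to 2 for day -14 against day -65 and against day -30, 1 to 2 for day 28 against day -14, 0 to 2 for diet by day, 1 to 8 for diet on each day and 2 to 3 after calving; the other comparisons kept 0. Without cow 6877, ACLY-b changed over days (adjusted p = 0.0126) and was lower on day -14 than on day -65 (-0.57, adjusted p = 0.00950). It was then also 1.11 higher in ad libitum cows on day -14 (adjusted p = 0.00214), as AGPAT1 was by 0.58 (adjusted p = 0.00897). For both elements that was the only 1 of 20 alternatives in which the day -14 feeding difference passed.

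Counts over all elements ranged from 0 to 867 after calving (844 as reported), or to 952 with 1 cow left out, from 1267 to 3815 for day -14 against day -65 (2559), and from 0 to 69 for diet by day (64), or to 1033 with 1 cow left out. Without the replicate block the counts were those reported, among them 3 elements over days, 1 for diet by day and a sum of 5 for diet on each day, and with a fixed replicate block they were 3 and 1. Change over days, comparisons with day 1 and diet by day could not be fitted without cow-days of agreement under 0.6, and diet on each day there and with a fixed block. Signal over background is not given in the sources used here, so weak spots could not be told from strong ones.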
